A study of Mus musculus with 58 samples.

Results

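The PAR bZIP and DEC factors are 6 transcription factor genes of the clock output, Dbp, Tef, Hlf, Nfil3, Bhlhe40 and Bhlhe41. They were taken by symbol from a table of 52459 genes counted in 58 libraries, and all 6 had a row and passed the filter on low counts, as did 19120 genes in all. Each library was made from the total RNA of 1 mouse retina after removal of ribosomal RNA. Diabetic retinas came from male mice labelled C57BL/6-Ins2Akita/J, which carry 1 mutated allele of insulin 2 that misfolds and leads to loss of beta cells and hyperglycemia, and control retinas came from male littermates without it, labelled C57/BL/6. All mice were 4 months old, had no other treatment named in the labels and lived under 12 h of light and 12 h of darkness, and night samples were taken under dim red light. Times are given as zeitgeber time (ZT), counted in hours from the onset of light. There were 5, 6, 5, 5, 5 and 4 control libraries and 5, 5, 5, 4, 4 and 5 diabetic libraries at ZT1, ZT5, ZT9, ZT13, ZT17 and ZT21. The allele is present in the whole body and only males of 1 age were studied. The labels do not say whether any 2 retinas came from 1 mouse, so p-values measure the spread between these libraries.

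The core clock works through CLOCK and BMAL1, which bind E-boxes and drive genes that feed back on them, and it passes time on through further transcription factors. DBP, TEF and HLF are PAR bZIP activators that bind D-boxes, and NFIL3, also called E4BP4, binds the same D-boxes and represses them. In many tissues Dbp and Nfil3 peak at opposite times of day, so that the D-box is driven in one phase and repressed in the other. BHLHE40 and BHLHE41, also called DEC1 and DEC2, are repressors that bind E-boxes and thereby oppose CLOCK and BMAL1. In the retina, clocks run in several cell types, and rod photoreceptors are the most numerous cells.

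Dbp lies on chromosome 7 (chr7:45705088-45710203, + strand), Tef on chromosome 15 (chr15:81802421-81826863, +), Hlf on chromosome 11 (chr11:90336536-90390895, -) and Nfil3 on chromosome 13 (chr13:52967209-52981073, -). Bhlhe40 (chr6:108660629-108666925, +) and Bhlhe41 (chr6:145858243-145865558, -) share chromosome 6. All positions are those of Gencode M21 on GRCm38, and all 6 genes are protein coding. Of the exon bases of Dbp, 18.0% overlap Sphk2 on the opposite strand, which had a mean of 326 normalized counts, and 19.0% of those of Bhlhe41 overlap Gm43909, which had a mean of 14.5. How HTSeq treated strand is not given in the sources used here, so reads of these overlapping stretches may be shared between the partners. Overlaps of Tef and Bhlhe40 covered 2.45% and 2.51% of their exon bases.

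RefSeq promoter windows on GRCm38.p6, from 250 bases before to 50 bases after the start site, were found for 5 of the 6 genes, with 2 windows for Tef. They were searched on both strands for the E-box CACGTG, the D-boxes TTATGTAA and TTACGTAA, the ROR and REV-ERB core element TAGGTCA or TGGGTCA, and the cAMP response element TGACGTCA, none of which overlapped another match. Each match is printed because these letters are the ones that the clock factors themselves or light and cAMP signalling act through, with 30 bases of the gene's strand and the matched letters in capitals.
Tef, window 1: tgctgtggctcCACGTGctgcagctggcac
Tef, window 2: acctggcccagCACGTGtctacatcgtttg
Bhlhe41: ggtacgttccgCACGTGagctgggtgctgg
Nfil3: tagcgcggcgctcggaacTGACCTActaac
Hlf: atcggcgcgcggtgcgggcccTGACGTCAc
These stretches are chr15:81802535-81802564 and chr15:81811265-81811294 for Tef, chr6:145865555-145865584 for Bhlhe41, chr13:52981040-52981069 for Nfil3 and chr11:90390918-90390947 for Hlf. By Gencode M21, the stretch of Tef window 1 and that of Nfil3 lie in an exon, that of Tef window 2 in an intron, 4 bases of that of Bhlhe41 in an exon, and that of Hlf outside the gene. Counted from the start site, the E-boxes begin at positions -127 and -138 in Tef and -153 in Bhlhe41. The letters in Nfil3, which are TAGGTCA on the opposite strand, begin at -12 and those in Hlf at -9. Of 32851 windows of all genes, 7.15% held the E-box, 6.45% a ROR and REV-ERB core element, 1.79% the cAMP response element and 1.06% a D-box. The Dbp window held none of these letters, which says nothing of the rest of the gene.

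The libraries held 7773117 to 22147398 counts, with a median of 15406440. Rod markers (Sag, Gnat1, Pde6b, Nrl and Nr2e3) were all detected and summed to 160595 to 264302 normalized counts per library. The summed 5 markers of the pigment epithelium, the layer behind the photoreceptors that is left behind in dissection, moved with time of day. Its group medians were 848 and 934 at ZT1 and ZT5 and 2368 to 3027 at the later time points in control retinas, and 802 and 455 against 1631 to 3137 in diabetic retinas. In 3 control libraries (ZT1 replicate 6, ZT17 replicate 5 and ZT21 replicate 2) the lens marker sum was 18666 to 27065, while it was at most 567 in any of the others, and 1 of the 6 lens markers was at 0 in every library. In whole retinas, fewer cells of a type and less RNA per cell cannot be told apart.

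Set on a scale per length (RPKM, counts per kilobase of exon scaled by library size), the 6 factors covered a wide range of levels. Dbp and Hlf stood highest, at 44.1 ± 7.45 and 43.8 ± 3.01 RPKM (SD, n = 30) in control retinas and 41.3 ± 6.81 and 44.1 ± 3.19 RPKM (SD, n = 28) in diabetic retinas, and their libraries overlapped. Tef followed with 30.6 ± 2.05 and 31.7 ± 2.5 RPKM and Bhlhe41 with 26.9 ± 1.94 and 27.4 ± 2.19 RPKM, and these also overlapped each other. The lowest libraries of Dbp (28.2 RPKM) and Hlf (37.2 RPKM) lay below the highest of Tef (38.8 RPKM), and that of Dbp also below the highest of Bhlhe41 (31.8 RPKM), so the order of these 4 genes is one of means. Bhlhe40 had 12.0 ± 1.56 and 11.4 ± 1.55 RPKM, below every library of Bhlhe41. Nfil3 was the lowest, with 6.65 ± 1.22 and 6.77 ± 0.989 RPKM, and its highest library (9.83 RPKM) lay above the lowest of Bhlhe40 (8.55 RPKM). The lengths are those of all annotated exons of a gene together, which lowers the level of genes with many alternative exons.

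Rhythm over the day was tested by a cosine of 24 h in each genotype, with edgeR's quasi-likelihood test and Benjamini-Hochberg adjustment over all genes tested. Dbp, Tef and Nfil3 passed in control retinas, with adjusted p-values of 0.0028, 0.0111 and 0.00143, and the same 3 genes passed in diabetic retinas, with 0.000592, 0.00588 and 0.0220. Thus 3 of the 6 factors were rhythmic in each genotype, where 12.2% of all genes tested were in control and 14.3% in diabetic retinas. Hlf, Bhlhe40 and Bhlhe41 did not pass in either genotype. Their adjusted p-values were 0.228, 0.197 and 0.385 in control and 0.473, 0.103 and 0.648 in diabetic retinas. Hlf and Bhlhe40 passed under some of the alternatives given below.

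**Figure D1:**
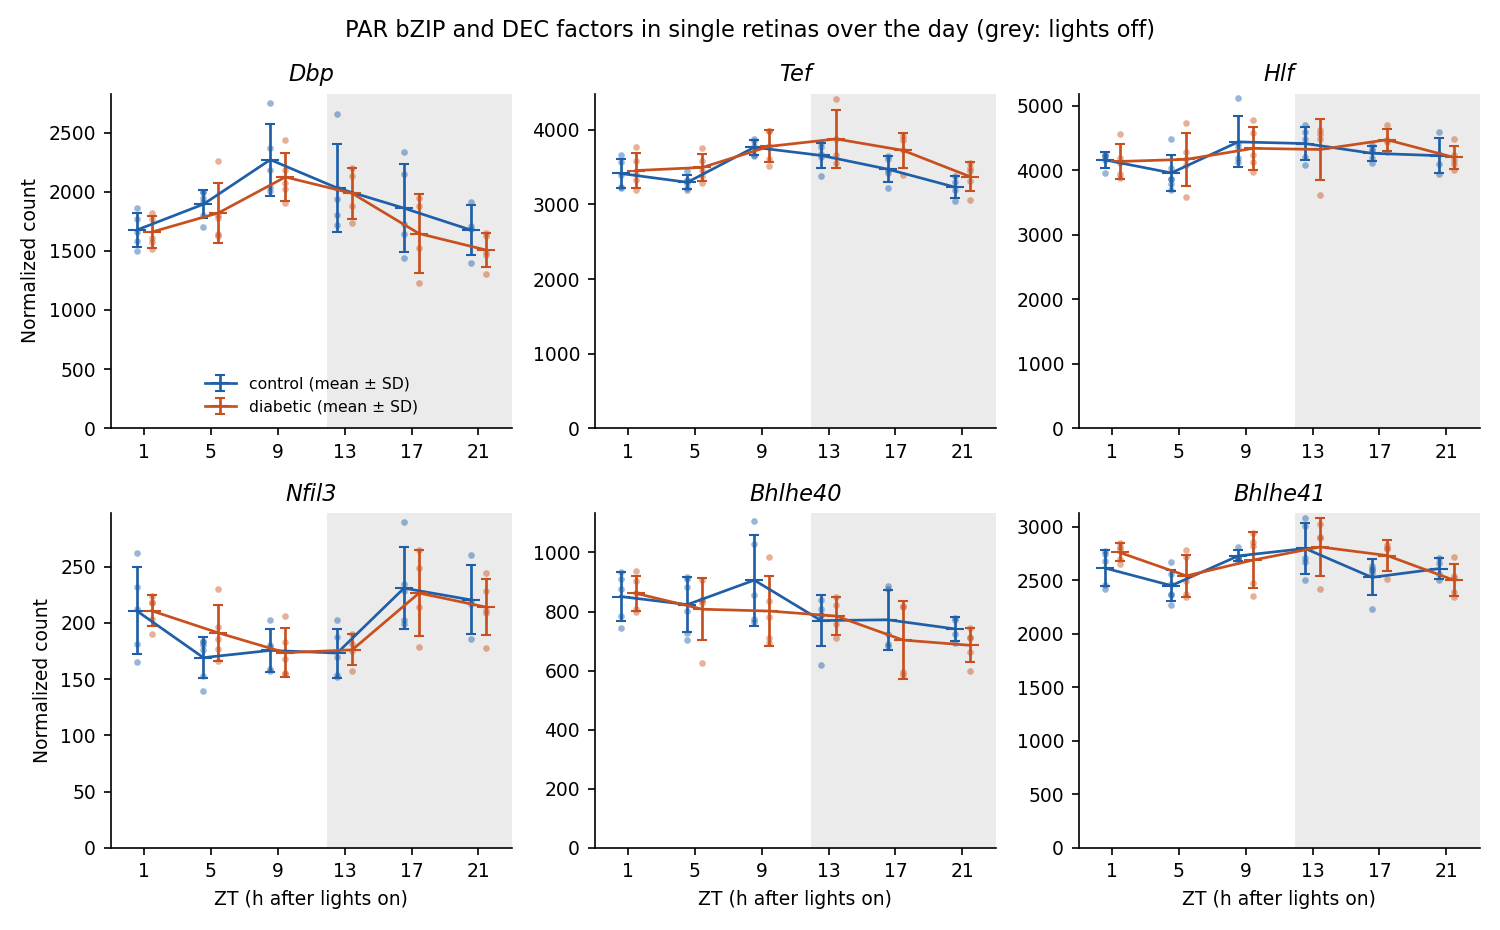
Normalized counts of the 6 factors in each library (points) against ZT in hours, with group means and SD (lines and bars) for control and diabetic retinas shifted sideways for sight. Dbp is highest at ZT9 in both genotypes, with means of 2270 in control and 2124 in diabetic retinas, while Nfil3 is highest at ZT17, with means of 231 and 226.

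Dbp, a PAR bZIP activator named for its binding to the albumin promoter, was high late in the day and low at the end of the night. In control retinas the 5 libraries at ZT9 had 2370, 2006, 2041, 2754 and 2180 normalized counts, and the 4 at ZT21 had 1395, 1685, 1711 and 1914. In diabetic retinas the 5 libraries at ZT9 had 2076, 1900, 2182, 2435 and 2026, and the 5 at ZT21 had 1463, 1305, 1650, 1490 and 1629. In each genotype every library of ZT9 lay above every library of ZT21, with no overlap between the groups. The group means ran from 1675 ± 144 (SD, n = 5) at ZT1 to 2270 ± 306 (SD, n = 5) at ZT9 in control retinas, a ratio of 1.36. In diabetic retinas they ran from 1507 ± 140 (SD, n = 5) at ZT21 to 2124 ± 201.4 (SD, n = 5) at ZT9, a ratio of 1.41. Within a group the libraries also spread widely at night, from 1722 to 2660 at ZT13 in control retinas and from 1229 to 1948 at ZT17 in diabetic retinas.

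Tef, a further PAR bZIP activator, named for its part in thyrotroph cells, was also high at ZT9 and low at ZT21 and had a smaller amplitude in the fit. At ZT9 in control retinas its libraries had 3877, 3667, 3653, 3847 and 3788 normalized counts, and at ZT21 they had 3053, 3379, 3307 and 3191. All ZT9 libraries stood above all ZT21 libraries. In diabetic retinas ZT9 had 3615, 3522, 3781, 3987 and 3991 and ZT21 had 3562, 3066, 3484, 3308 and 3450, so that 1 library of ZT21 lay within the range of ZT9. The highest diabetic mean was at ZT13, 3878 ± 384 (SD, n = 4), where a single library had 4419 and the others 3558 to 3876.

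Nfil3, the D-box repressor, ran the other way, with its high means from ZT17 to ZT1. At ZT1, after lights on, its mean was 211 in both genotypes. At ZT13, after lights off, it was still low, with means of 173 in control and 176 in diabetic retinas. In control retinas the 5 libraries at ZT17 had 202, 199, 290.0, 228 and 235 normalized counts, and the 6 at ZT5 had 140, 178 and 183 as the lowest, the median and the highest. Every ZT17 library was above every ZT5 library. In diabetic retinas ZT17 had 179, 248, 214 and 265 and ZT5 had 186, 177, 197, 230.3 and 166, and these groups overlapped. The lowest diabetic mean was at ZT9, 173 ± 21.8 (SD, n = 5), and the highest at ZT17, 226 ± 38.3 (SD, n = 4). Nfil3 had the fewest counts of the 6 factors and therefore the largest counting error.

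Hlf, the third PAR bZIP activator, had group means from 3957 ± 281 (SD, n = 6) at ZT5 to 4438 ± 396 (SD, n = 5) at ZT9 in control retinas, and from 4135 ± 266 (SD, n = 5) at ZT1 to 4471 ± 171 (SD, n = 4) at ZT17 in diabetic retinas. Its libraries at the highest and the lowest time point overlapped in both genotypes. Bhlhe41 ran from 2449 ± 148 (SD, n = 6) at ZT5 to 2796 ± 242 (SD, n = 5) at ZT13 in control retinas, and from 2500 ± 149 (SD, n = 5) at ZT21 to 2811 ± 270 (SD, n = 4) at ZT13 in diabetic retinas, again with overlap. Bhlhe40 had its highest mean at ZT9 in control retinas, 906 ± 154 (SD, n = 5), and at ZT1 in diabetic retinas, 862 ± 59.7 (SD, n = 5). Its lowest means were at ZT21 in both, 741 ± 40.6 (SD, n = 4) and 686 ± 57.2 (SD, n = 5). These groups overlapped in control retinas and did not in diabetic retinas, where Bhlhe40 had 797 to 936 at ZT1 and 598 to 745 at ZT21. With the time points picked by their means in this way, 3 of the 6 factors had no overlap in control retinas (Dbp, Tef and Nfil3) and 2 in diabetic retinas (Dbp and Bhlhe40), where 15.8% and 18.7% of all genes had none.

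The acrophase is the time at which the fitted cosine of normalized counts peaks, and the relative amplitude is the height of that peak above the fitted mean in percent of the mean. For Dbp the acrophase was ZT10.3 ± 0.904 h (SE, n = 30) in control and ZT9.60 ± 0.753 h (SE, n = 28) in diabetic retinas, with relative amplitudes of 14.8% ± 3.75 and 16.3% ± 3.1. Tef peaked at ZT11.4 ± 0.781 h and ZT12.2 ± 0.953 h, around lights off, with relative amplitudes of only 6.39% ± 1.37 and 6.92% ± 1.73. Nfil3 peaked at ZT20.2 ± 0.839 h and ZT21.0 ± 1.03 h, with 16.8% ± 3.82 and 12.3% ± 3.2. Over the 12 group means of log2 CPM, the level of Nfil3 had a correlation of -0.79 with that of Dbp, and the level of Tef one of 0.63 with Dbp. Tef had higher values with Hlf (0.75) and Bhlhe41 (0.72), which had no rhythm call. These correlations describe 12 groups that share the time points, and Dbp with Nfil3 was the most negative of the 15 pairs.

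**Figure D2:**
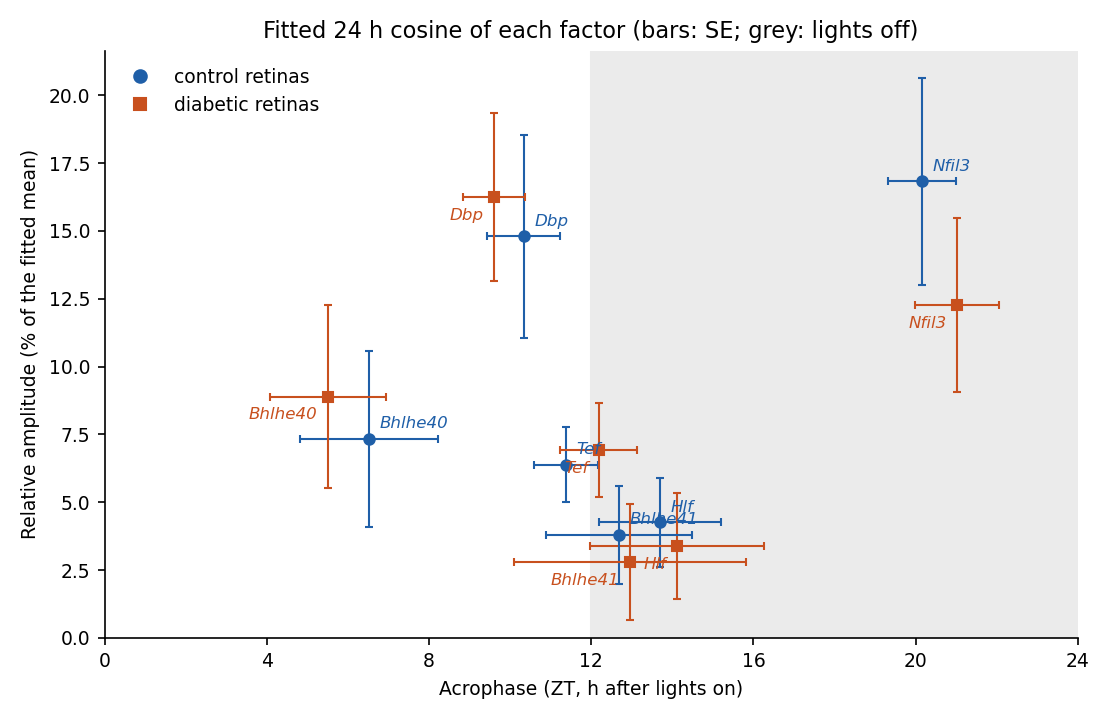
Acrophase in ZT against relative amplitude in percent of the fitted mean for each factor, with standard errors as bars, in control (circles) and diabetic retinas (squares). Dbp and Nfil3 have the larger amplitudes, 12.3% to 16.8%, and lie on opposite sides of lights off, while Hlf and Bhlhe41 lie at 2.81% to 4.26% with wide errors in time.

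For the 3 factors without a call, the peak times are poorly fixed. Hlf had an acrophase of ZT13.7 ± 1.51 h in control and ZT14.1 ± 2.14 h in diabetic retinas, Bhlhe41 of ZT12.7 ± 1.80 h and ZT13.0 ± 2.86 h, and Bhlhe40 of ZT6.51 ± 1.70 h and ZT5.50 ± 1.43 h. The relative amplitude of Bhlhe40, 7.33% ± 3.24 and 8.89% ± 3.39, was as large as that of Tef, but its libraries varied more within groups.

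Some of these calls rested on the test or on a time point. In a rank test of the kind used in the study, which compares each series with shifted and skewed waveforms, Dbp passed in both genotypes (adjusted p = 0.0200 and 0.0146 by permutation), Tef in control (0.0403) but not in diabetic retinas (0.0709) and Nfil3 in diabetic (0.0257) but not in control retinas (0.0621). That test called 8.43% of genes in control and 10.4% in diabetic retinas. The study itself called genes by the unadjusted p of this kind of test and a least fold. With the unadjusted p under 0.05 and a ratio of the highest to the lowest single library above 1.25, an alternative added after seeing the data, 4 of the 6 factors passed in each genotype, where 21.0% of genes did in control and 23.9% in diabetic retinas. These were Dbp, Tef and Nfil3 in both, Hlf in control (unadjusted permutation p = 0.0240) and Bhlhe40 in diabetic retinas (0.0141). The ratio of single libraries is a weaker demand than one of fitted levels, since the peak-to-trough ratio of the cosine was only 1.14 and 1.15 for Tef, 1.09 for Hlf in control and 1.20 for Bhlhe40 in diabetic retinas, all under that limit. Without the ZT9 libraries, Dbp and Tef lost the call in control retinas (edgeR adjusted p = 0.117 and 0.182) and Nfil3 in diabetic retinas (0.202). Without ZT21, Tef lost it in both genotypes (0.0904 and 0.0589), and without ZT13 Nfil3 lost it in diabetic retinas (0.0578). With 1 term per time point in place of the cosine, Nfil3 in diabetic retinas had an adjusted p of 0.0780 by edgeR. Leaving out diabetic ZT9 replicate 1 or replicate 5 also took Nfil3 past the threshold there, to 0.0525 and 0.0520, while the calls of Dbp and Tef in both genotypes and of Nfil3 in control retinas held in all 58 fits that left out 1 library. Bhlhe40 in diabetic retinas passed without diabetic ZT5 replicate 5 (edgeR adjusted p = 0.0356).

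The marker sums were set beside these calls after the data were seen. With the log2 sum of the pigment epithelium markers as a term of the fit, edgeR's adjusted p was 0.00430 and 0.00118 for Dbp, 0.0168 and 0.0142 for Tef, and 0.00140 and 0.0267 for Nfil3, in control and diabetic retinas, where 11.8% and 9.17% of genes passed. With the rod marker sum as a term, the adjusted p-values by edgeR were 1.96e-06 and 1.16e-05 for Dbp, 0.00465 and 0.00142 for Tef and 0.00320 and 0.00142 for Nfil3, and Bhlhe40 passed as well in control (0.00810) but not in diabetic retinas (0.118). With that term 12.8% of all genes passed in control and 30.2% in diabetic retinas. Without the 3 libraries rich in lens transcripts, the calls of Dbp (0.00840 and 0.000605), Tef (0.0135 and 0.00711) and Nfil3 (0.00513 and 0.0190) held.

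To see when the change took place, the time points 12 h apart were compared in the fit of 12 groups. From ZT9 to ZT21, Dbp fell by 0.44 ± 0.12 (log2, SE) in control retinas, to 0.736-fold, and by 0.50 ± 0.11 in diabetic retinas, to 0.707-fold (edgeR adjusted p = 0.0340 and 0.00418). Tef fell by 0.23 ± 0.06 and by 0.17 ± 0.05 over the same span (0.0162 and 0.0474). Thus 2 of the 6 factors were lower at ZT21 in each genotype, where 2.33% of genes tested passed in control and 5.08% in diabetic retinas, and 1.13% and 2.89% were lower. The libraries did not overlap for Dbp in both genotypes and for Tef in control retinas, as for 5.87% of genes in control and 5.24% in diabetic retinas. Hlf differed by -0.08 ± 0.07 in control and -0.05 ± 0.06 in diabetic retinas, and Bhlhe41 by -0.07 ± 0.07 and -0.11 ± 0.06. The difference of Bhlhe40 was -0.30 ± 0.11 and -0.23 ± 0.11 (edgeR adjusted p = 0.179 and 0.235), and that of Nfil3 was 0.33 ± 0.12 and 0.31 ± 0.12 (0.170 and 0.120).

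**Figure D3:**
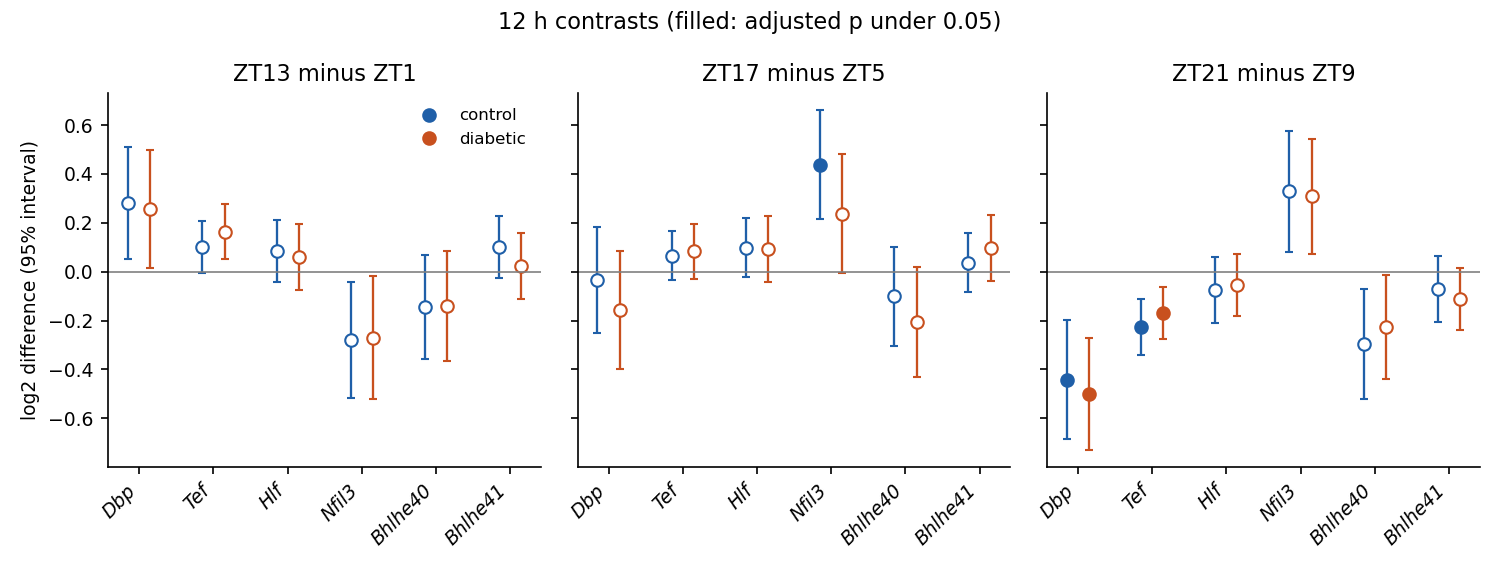
Log2 differences between time points 12 h apart for each factor in control and diabetic retinas, with 95% intervals, where filled points have an adjusted p under 0.05. Dbp (-0.44 and -0.50) and Tef (-0.23 and -0.17) are lower at ZT21 than at ZT9 in both genotypes, and Nfil3 is 0.44 higher at ZT17 than at ZT5 in control retinas.

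From ZT5 to ZT17, Nfil3 rose by 0.44 ± 0.11 in control retinas, to 1.35-fold (edgeR adjusted p = 0.00547), and it was the only one of the 6 with a call, where 7.42% of genes were higher. Its libraries did not overlap, as was so for 7.69% of genes. In diabetic retinas its difference was 0.24 ± 0.12 (edgeR adjusted p = 0.245), and no factor passed, where 7.36% of genes did, against 15.1% in control retinas. From ZT1 to ZT13 no factor passed in either genotype, where 0.847% and 1.4% of genes did. Over that span Dbp differed by 0.28 ± 0.11 and 0.26 ± 0.12, Tef by 0.10 ± 0.05 and 0.16 ± 0.06, and Nfil3 by -0.28 ± 0.12 and -0.27 ± 0.13. Without the lens-rich libraries, 1 of which is at ZT1, the control difference of Nfil3 was -0.19 (edgeR unadjusted p = 0.141, against 0.0210 with all libraries). That Nfil3 passed between ZT5 and ZT17 in control and not in diabetic retinas does not show a difference between the genotypes.

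These contrasts were less firm than the fits over all time points. The fall of Dbp in control retinas lost its call without ZT9 replicate 1 or 4 or ZT21 replicate 1, 2 or 3 (edgeR adjusted p = 0.0692 to 0.141), and was at 0.0626 without the 3 libraries rich in lens transcripts, where the difference itself was -0.44 as before. That of Tef in control retinas lost it without ZT21 replicate 1 or 4 (0.0715 and 0.0689) and with no filter on low counts (0.0804). That of Tef in diabetic retinas held in only 22 of 58 fits that left out 1 library, with adjusted p-values up to 0.157, and was at 0.0627 with DESeq2 size factors, 0.0608 without the lens-rich libraries, at a difference of -0.17 as before, and 0.240 with no filter. The rise of Nfil3 had an adjusted p of 0.0560 without control ZT17 replicate 3. The fall of Dbp in diabetic retinas held in all 58 fits.

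Whether diabetes altered the rhythm was tested by the difference of the cosine terms between the genotypes. None of the 6 factors passed edgeR's test, with unadjusted p-values of 0.702 for Dbp, 0.814 for Tef, 0.924 for Hlf, 0.517 for Nfil3, 0.829 for Bhlhe40 and 0.925 for Bhlhe41, and adjusted values of 1.00. Of all genes tested 0.0% passed, also with DESeq2's test. An unadjusted p under 0.05 in edgeR's test was found for 657 genes, a smaller share than the 0.05 that chance alone would give. The acrophase in diabetic retinas was -0.73 ± 1.18 h (SE) from that in control retinas for Dbp, 0.81 ± 1.23 h for Tef and 0.87 ± 1.33 h for Nfil3. The relative amplitude differed by 1.46 ± 4.86 percentage points for Dbp, 0.53 ± 2.20 for Tef and -4.56 ± 4.99 for Nfil3. Each of these differences was smaller than its standard error.

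The level in diabetic against control retinas was compared over all time points with equal weight for each. No factor passed edgeR's adjusted threshold, where 4.64% of genes did. Tef came nearest, with a log2 difference of 0.06 (SE 0.02, 95% interval 0.01 to 0.10), a 1.04-fold level and an unadjusted p of 0.0110 (adjusted 0.126), and its difference was above 0 at all 6 time points. Dbp had -0.09 (95% interval -0.18 to 0.01, unadjusted p = 0.0682, adjusted 0.330 by edgeR) and was below 0 at all 6. Without the lens-rich libraries it had -0.10 (edgeR unadjusted p = 0.0394, adjusted 0.264). The rod marker sum, which Dbp followed within groups, had a median of 199131 in diabetic and 214481 in control libraries, and its diabetic median was the lower one at 5 of 6 time points. Its part in the level of Dbp was not tested. The intervals were -0.16 to 0.02 for Bhlhe40, -0.02 to 0.08 for Bhlhe41, -0.04 to 0.06 for Hlf and -0.08 to 0.11 for Nfil3. The median of the 6 differences was 0.01, and that over all genes was 0.00.

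**Figure D4:**
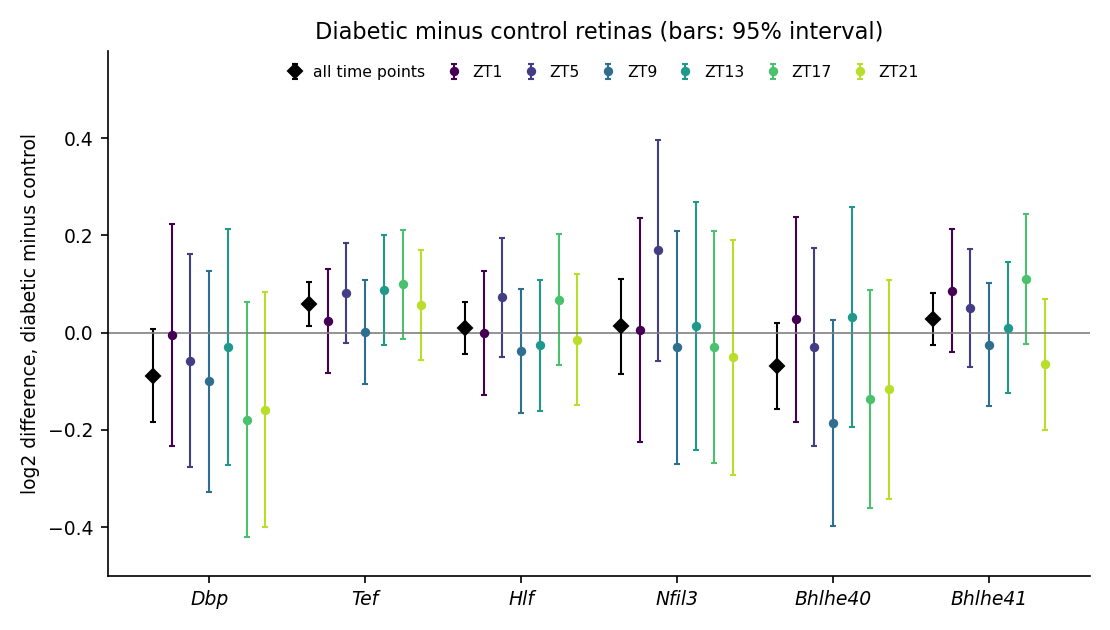
Log2 difference of diabetic minus control retinas for each factor over all time points (diamonds) and at each ZT (circles), with 95% intervals. All 6 Tef points lie at or above 0 and all 6 Dbp points below it, but no single time point has an interval that leaves out 0.

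At single time points the 36 differences ranged from -0.19 (Bhlhe40 at ZT9) to 0.17 (Nfil3 at ZT5), none had an unadjusted p under 0.05, and the smallest was 0.0829 for Tef at ZT17. The smallest adjusted p by edgeR was 0.644. Few genes of any kind passed there, namely 0.0105%, 0.0209%, 0.00523%, 0.0%, 0.167% and 0.0% over the 6 time points in their order, and unadjusted p-values were under 0.05 for 852 to 1686 genes. Chance alone would put a share of 0.05 of all genes tested under that limit. Dbp at ZT17 is an example of the spread behind these values. Its control libraries had 2339, 1642, 2152, 1727 and 1443 normalized counts and its diabetic libraries 1879, 1948, 1528 and 1229, which overlap over most of their range. The lowest of these control libraries is rich in lens transcripts, and without the 3 such libraries the difference was -0.26 in place of -0.18 (edgeR unadjusted p = 0.0449 in place of 0.143, adjusted 0.549).

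The genes that stand before and after these factors in the clock were taken from lists. Of 13 core clock genes, 2 had a rhythm in control retinas (Ciart and Rorb) and 4 in diabetic retinas (Ciart, Rorb, Per2 and Rora), beside 12.2% and 14.3% of all genes tested. Ciart, a repressor of CLOCK and BMAL1, peaked near Dbp, at ZT9.18 ± 0.479 h and ZT9.61 ± 0.449 h, with relative amplitudes of 40.4% ± 5.64 and 40.9% ± 4.81. Rorb, a nuclear receptor of the ROR family needed for photoreceptor development, peaked at ZT18.4 ± 0.485 h and ZT17.4 ± 0.295 h with 21.6% ± 2.71 and 29.4% ± 2.32. Over all time points 2 of the 13 were higher in diabetic retinas, Cry1 and Cry2, by 0.12 and 0.11 on the log2 scale (edgeR adjusted p = 0.0247 and 0.0122), and none was lower, beside 4.64% of all genes in either direction.

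Of 7 genes known as targets of PAR bZIP factors, mostly from liver, 5 passed the filter and none had a rhythm call in either genotype. Of all genes tested, 12.2% had a call in control and 14.3% in diabetic retinas. With only 5 genes, no call is near what these shares give. Pdxk, the kinase that makes pyridoxal phosphate and a target of all PAR bZIP factors in liver and brain, came nearest, with edgeR adjusted p-values of 0.195 in control and 0.0549 in diabetic retinas. Its acrophase was ZT16.1 ± 1.24 h and ZT15.2 ± 1.34 h, and its relative amplitude 5.24% ± 1.60 and 7.31% ± 2.67. Por, Alas1, Ppara and Abcb1a had adjusted p-values from 0.239 to 0.951 in control and from 0.0732 to 0.292 in diabetic retinas. Nr1i3 and Cyp7a1 were at or under the filter. No target passed in diabetic against control retinas over all time points either, where 4.64% of all genes did.

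Among 11227 genes with a mean of at least 100 normalized counts, the 3 most like each factor over the 12 group means of log2 CPM were named, as a description. For Dbp these were Scfd2 (r = 0.96), Hcls1 (0.94) and Ciart (0.94), and for Tef Cables1 (0.93), Crlf3 (0.93) and E530011L22Rik (0.91). For Hlf they were Tsc22d3 (0.88), a glucocorticoid-induced gene, Rhpn2 (0.85) and Car14 (0.85). Nfil3 was most like Slc25a35 (0.97), Notch1 (0.96) and Magi3 (0.96), Bhlhe40 most like Imp4 (0.96), Ints4 (0.95) and Mtg2 (0.95), and Bhlhe41 most like N4bp2 (0.86), Cyp46a1 (0.84) and Gm9752 (0.80). Ciart was the only gene of the core clock list among those named here.

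Libraries of a group also differed from each other. With each group's mean taken off the log2 CPM values, 12 of the 15 pairs of factors were positively correlated over the 58 libraries (Pearson's r, permutation within groups, adjusted p under 0.05), and 11 were by Spearman's coefficient, where Bhlhe40 with Bhlhe41 did not pass (adjusted p = 0.0657, permutation). Values of this size were common, since the upper quartile of r over other genes was 0.44 with Dbp and 0.42 with Bhlhe40. The count alone therefore does not set these factors apart from other genes. Dbp and Bhlhe40 had the largest value, Pearson's r of 0.64 and Spearman's coefficient of 0.64 (adjusted p = 0.00015 and 0.0003, permutation), and r = 0.62 without the 2 libraries farthest from the median in the first. It was 0.66 within control and 0.63 within diabetic retinas. In the same order, Hlf and Bhlhe40 had 0.51 and 0.47, and Dbp and Bhlhe41 had 0.48 and 0.44. Dbp and Nfil3, which ran opposite over the day, had 0.33 and 0.39 within groups. The 3 pairs that did not pass were Tef with Hlf (r = 0.09), Tef with Bhlhe41 (0.12) and Nfil3 with Bhlhe41 (0.08).

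The summed rod markers moved with these deviations. Their correlation within groups was 0.72 with Bhlhe40, 0.67 with Dbp, 0.48 with Hlf, 0.43 with Nfil3, 0.38 with Bhlhe41 and 0.23 with Tef, and the summed Muller glia markers (Glul, Rlbp1, Apoe and Aqp4) had 0.71 with Bhlhe40, 0.68 with Hlf, 0.63 with Dbp, 0.50 with Nfil3, 0.35 with Tef and 0.21 with Bhlhe41. The Muller glia sum was not removed in any fit. After the linear dependence on the rod marker sum was taken off, an alternative chosen after seeing the data, none of the 15 pairs passed. Dbp with Bhlhe40 then had r = 0.31 (adjusted p = 0.170, permutation). Some pairs kept more of their correlation, with r = 0.34 for Dbp with Bhlhe41 (0.48 before), 0.31 for Tef with Bhlhe40 (0.38 before) and 0.27 for Tef with Nfil3 (0.33 before). Others lost most of it, with 0.06 for Dbp with Nfil3 (0.33 before) and 0.17 for Dbp with Hlf (0.43 before). Nfil3 with Bhlhe40 fell to 0.13 (0.39 before) and Bhlhe40 with Bhlhe41 to 0.08 (0.32 before). Such correlations were common, since the upper quartile of r over 11232 other genes was 0.44 with Dbp and 0.42 with Bhlhe40. The share of all gene pairs that would pass was not computed. Ordered by r with Dbp, Bhlhe40 had rank 1026, and by r with Bhlhe40, Dbp had rank 570. By r with Bhlhe41, where the upper quartile was 0.19, Dbp had rank 43 and Hlf rank 140. The pigment epithelium sum had correlations of -0.33 to 0.06 with the 6 factors, and the total count 0.22 with Dbp and 0.28 with Nfil3.

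**Figure D5:**
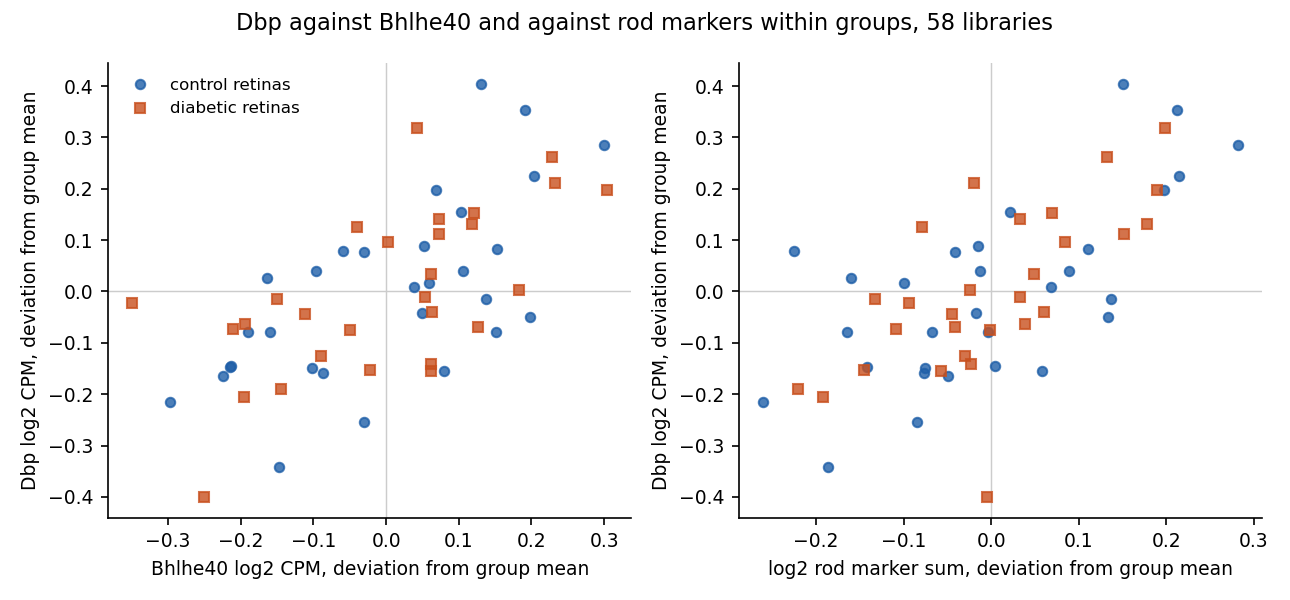
Dbp log2 CPM as the deviation of each of the 58 libraries from its group mean, against the same deviation of Bhlhe40 (left) and of the log2 rod marker sum (right), in control (circles) and diabetic retinas (squares). The correlation is 0.64 on the left and 0.67 on the right, and both genotypes spread over the same range.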

How the data were processed

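The authors inspected the reads with FastQC, aligned them with STAR 2.7.4a to GRCm38.p5 with Gencode M15 and counted them per gene with HTSeq 0.11.1, and they deposited raw counts, not normalized or filtered. Columns were assigned to genotype, time point and replicate by title. The 6 members and all lists were chosen with earlier results of these data known.

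Genes with a median above 4 counts, divided by DESeq2 (1.42.0) size factors, were tested. Rhythm and its difference were tested in edgeR (4.0.16, R 4.3.3, TMM factors, quasi-likelihood) with cosine and sine of 24 h per genotype, and level differences with 12 groups. P-values were adjusted over all 19120 genes by Benjamini-Hochberg. Acrophases came from least squares on normalized counts. The study's own rank test (empJTK) was rewritten, with 100000 shuffled series, as an alternative. Correlations used 100000 permutations within groups. Scripts were tested on simulated counts. The alternatives were other size factors, no filter, DESeq2's test, a replicate block, 1 term per time point, no term for time, log2 CPM, TMM-scaled counts, a pseudocount of 1, each library or time point left out and, added after seeing the data, marker sums as terms and the lens-rich libraries left out. The genes named are the 6 members, 13 core clock genes, 7 PAR bZIP targets, overlapping genes and, per member, the 3 with the nearest pattern. Marker lists of rods, cones, bipolar, amacrine and ganglion cells, Muller glia, endothelium, microglia, pigment epithelium, lens, blood, and cornea and ciliary body were summed per library. A core clock gene and a rod marker are not reported here and enter no list or sum. At 7773117 to 22147398 counts per library, Nfil3 has the fewest counts of the members. The sequence windows are those of RefSeq, and Bhlhe40 was not matched there. Python 3.11.15 with numpy 2.4.6, scipy 1.17.1 and pandas 2.3.3 was used.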

Additional observations from a re-analysis of the deposited data

Results flagged for a closer look

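Among 72 sets of libraries (6 factors in 12 groups), 6 held a library whose gap to the next one took up more of the group's range than Dixon's limit allows, and chance gives about 1 in 20 such sets. Dbp was high in diabetic ZT5 replicate 4, with 2259 normalized counts against a group median of 1774. Hlf was low in diabetic ZT13 replicate 5, with 3618 against 4523. Bhlhe40 was low in diabetic ZT5 replicate 5, with 627 against 839, and in control ZT13 replicate 2, with 620.1 against 789. Bhlhe41 was low in replicate 5 of ZT17 in both genotypes, with 2229 against 2595 in control and 2508 against 2795 in diabetic retinas. Without diabetic ZT5 replicate 5, the rhythm of Bhlhe40 in diabetic retinas passed edgeR's test, with an adjusted p of 0.0356 against 0.103 with all libraries. The control ZT17 library with the low Bhlhe41 count is also one of the 3 rich in lens transcripts.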

How the results depend on the processing

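The 3 rhythm calls per genotype kept their number under DESeq2 size factors, no filter and DESeq2's test, but 1 of the 3 in control retinas was left without ZT9. Over all genes, the rhythm calls in control retinas (2337) were 1168 without ZT5 and 758 without ZT17, and those in diabetic retinas (2736) were 1802 without ZT9, 1347 without ZT17, 1554 without ZT21, 5773 with the rod marker sum as a term and 1754 with the pigment epithelium sum. The rank test with an unadjusted p and a least fold called 4018 and 4565 genes. The 12 h contrasts in diabetic retinas gave 1 call of a member instead of 2 with DESeq2 size factors, with no filter and without the lens-rich libraries, and over all genes 1696 calls summed over the 3 contrasts instead of 2647 with no filter. With 1 library left out they gave 1 to 2 calls of members, those in control retinas 1 to 3 calls of members and 1988 to 4342 summed calls over all genes (3491 with all libraries), and the comparisons at single time points 10 to 106 summed calls (39 with all). DESeq2's test gave 124 there. Diabetic against control over all time points called 888 genes, but 533 with no filter and 572 with no term for time, and its Nfil3 difference ranged from -0.00087 to 0.029 with 1 library left out. With no filter, 3 genes differed in rhythm, none of them a member. With the rod marker sum removed, 0 pairs of factors were correlated within groups, and r was -0.099 for Nfil3 with Bhlhe41 and -0.021 for Tef with Hlf. Acrophases and relative amplitudes of the 6 factors moved by less than their standard error on log2 CPM, with TMM factors and without each library. The causes of these changes were not tested.

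Replicate numbers recur in the groups. Of 26 pairs of control and diabetic libraries with the same number and time point, 21 had deviations correlated above 0.1 and 5 did not (range -0.50 to 0.83, median 0.28). Over all groups the median was 0.20 for the same number and -0.04 for other numbers, a hint from the data of a shared factor. Of 52 libraries, 25 were closest to their own number among the 4 to 6 libraries of the other genotype at that time point. This is more than random picks would give, but no label says what a number marks. The correlations between factors within groups did not take the numbers into account. The numbers were taken to pair the samples only if every pair passed, so the fits without a block were kept. With a replicate block, the comparisons at single time points gave 74 summed calls, and the rhythm of Bhlhe40 in diabetic retinas passed (edgeR adjusted p = 0.0442), with no member's call lost. Nfil3 has the fewest counts, and differences of a few percent in any factor were not detectable at single time points with 4 to 6 libraries per group.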
